A study of Mus musculus with 8 samples.

Results

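Pax7 and Pax3 are 2 of the 57180 genes in the deposited tables, and each was found by its gene symbol, matched on the gene identifier. Their levels were followed in muscle stem cells that had been sorted from mice and sequenced without culture. The 4 control samples (replicates 2, 5, 7 and 8) are labelled WT. The 4 RhoA het samples (replicates 5, 6, 7 and 8) carried 1 floxed allele of RhoA beside an intact allele in the stem cells (SC-RhoAfl/+); their genotype field reads RhoA knockdown. The Cre driver, whether the controls also carried it, the age of the animals and the muscles taken are not given in the sources used here. Replicate numbers 5, 7 and 8 occur in both groups and gave 3 same-numbered pairs. The series set out to measure expression and splicing when RhoA activity is reduced, and the question for these genes was whether the transcripts that define the stem cell differed between the genotypes.

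Pax7 and Pax3 are paired box transcription factors that bind DNA through a paired domain and a homeodomain. Both mark muscle progenitors in the embryo. In adult muscle Pax7 is the defining factor of the resident stem cells, while Pax3 is retained by a part of them that varies between muscles. Pax7 recruits a histone methyltransferase complex to genes such as Myf5, and its level is known to fall as cells commit to differentiation.

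Pax7 (ENSMUSG00000028736.14) lies on the minus strand of mm39 chromosome 4, from 139464373 to 139560839, and Pax3 (ENSMUSG00000004872.16) on the minus strand of chromosome 1, from 78077904 to 78173771. Their counted exons add up to 5860 and 6187 bases. Neither gene overlapped another annotated gene, so the missing strand information in the counts does not touch them. Because the genes are paralogues, the sequences were compared to see how far reads could be shared. In the GENCODE M21 transcripts (GRCm38) the longest coding sequences, of 1515 and 1452 bases without the stop codon, were identical at 1066 of 1414 aligned bases (75.4%). The most similar ungapped stretch of 90 bases spans exons 1 and 2 and begins at coding base 14 of each transcript, where the paralogues differed at 8 bases. It is shown because it is where a read could most easily be given to the wrong gene, and capitals mark the bases that differ.
Pax7: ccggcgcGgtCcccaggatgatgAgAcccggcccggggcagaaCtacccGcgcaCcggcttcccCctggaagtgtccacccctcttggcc
Pax3: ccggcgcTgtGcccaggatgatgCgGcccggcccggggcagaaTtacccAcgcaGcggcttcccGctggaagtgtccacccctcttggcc
The longest exact run shared by the transcripts compared was 26 bases. Of the distinct 50-base windows in all annotated transcripts of each gene, 5858 for Pax7 and 6185 for Pax3, 0 were shared.

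Libraries held 19138763 to 25606342 assigned fragments. Rhoa, the targeted gene, had 6656 to 7273 fragments in control and 5379 to 5706 in RhoA het libraries. In CPM, fragments scaled to a common library size, after TMM scaling of the library sizes it averaged 324.6 ± 46.3 and 264.8 ± 14.4 (SD, n = 4 each). The groups overlapped on that scale, and the allele that was removed cannot be read from these gene totals. Control replicate 2 and RhoA het replicate 6, the libraries outside the pairs, held 14358 and 14659 fragments on 4 Y-linked genes. The other 6 held at most 2. Xist, expressed in female cells, had 5 and 7 fragments in those 2 libraries and 3539 to 5188 in the other 6. By these genes the 2 libraries outside the pairs are male and the paired ones female, so the fit of all 8 mixes the sexes. RhoA het replicate 6 also had the highest mean log2 CPM over 10 endothelial markers, 5.93 against 1.45 to 3.46 in the other libraries. Results are given without these libraries below. The labels do not say that replicates came from separate animals, so the tests measure the spread between these samples.

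Pax7 was the abundant member of the family in every library. Its deposited TPM (counts per base of exon, scaled to a fixed total) was 49.6, 71.2, 100.1 and 60.1 in the controls (numbers 2, 5, 7 and 8), against 46.6, 55.4, 56.5 and 46.9 in the RhoA het libraries (numbers 5, 6, 7 and 8). Ranked by TPM it stood between place 1512 and place 2927 of the 57180 genes. Pax3 had a TPM of 8.23, 9.83, 10.4 and 5.54 in the control libraries and 10.4, 14.4, 10.5 and 7.70 in the RhoA het libraries, in the same order, and stood between place 5928 and place 9147. Per base of exon, Pax7 therefore exceeded Pax3 in 8 of 8 libraries, by 3.86-fold to 10.8-fold. These values rest on 1609 to 4691 fragments for Pax7 and 239 to 608 for Pax3, for which counting error alone is 1.46% to 2.49% and 4.06% to 6.47%.

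Mean Pax7 was lower in RhoA het on each of the 5 scales used, but the difference did not pass the threshold over all genes. After TMM scaling it was at 112, 117, 176 and 115 CPM in the controls (numbers 2, 5, 7 and 8), against 78.5, 106, 99.5 and 82.7 CPM in the RhoA het libraries (numbers 5, 6, 7 and 8). On this scale no RhoA het library reached the lowest control, and control replicate 7 stood well above the rest. The means were 130.1 ± 30.5 and 91.6 ± 13.0 CPM (SD, n = 4 each). On the log2 scale this was a fold change of -0.51 (SE 0.18, 95% confidence interval -0.90 to -0.11), which corresponds to a change of -29.6% with an interval from -46.4% to -7.42%. The edgeR quasi-likelihood test gave an unadjusted p of 0.0173 and an adjusted p of 1.00 over 15660 genes. By unadjusted p Pax7 ranked 98 of the genes tested and 30 of those lower in RhoA het. No gene was called in this comparison (0.0% at an adjusted p under 0.05). An unadjusted p under 0.05 was reached by 372 genes (2.38%), 109 of them lower in RhoA het (0.696%), and DESeq2 and limma-voom with quality weights also called 0. Leaving out control replicate 7 moved the Pax7 fold change to -0.33 (interval -0.64 to -0.014, edgeR unadjusted p 0.0422). In bulk RNA, fewer cells with the transcript and less transcript per cell cannot be told apart. The Cre driver and its presence in the controls are not given, so its part in the Pax7 difference was not tested.

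Whether the groups of Pax7 values separated depended on the scaling of 1 library. On TMM CPM they did not overlap, as for 124 of 15660 genes lower in RhoA het (0.792%). The exact permutation test (two-sided) gave 0.0286, the smallest that 70 assignments allow. On DESeq2 size factors and upper-quartile factors the separation and the p were the same. On CPM from plain library totals control replicate 2 was at 95.8, below RhoA het replicates 6 and 7 at 102 and 101, and the exact permutation p was 0.0857. On TPM the same library, at 49.6, again lay below those 2 libraries, and the exact permutation p was 0.114. Groups that do not overlap on TPM were found for 1.51% of genes, and for 0.326% with RhoA het lower. Control replicate 2 had the smallest TMM factor, 0.852, against 0.968 to 1.07 elsewhere. On TPM the fold change in limma on log2(TPM + 1) was -0.40 (interval -0.85 to 0.051, unadjusted p 0.0765). The direction was the same on all 5 scales, with mean differences from -29.9% on upper-quartile CPM to -26.9% on TPM.

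**Figure D1:**
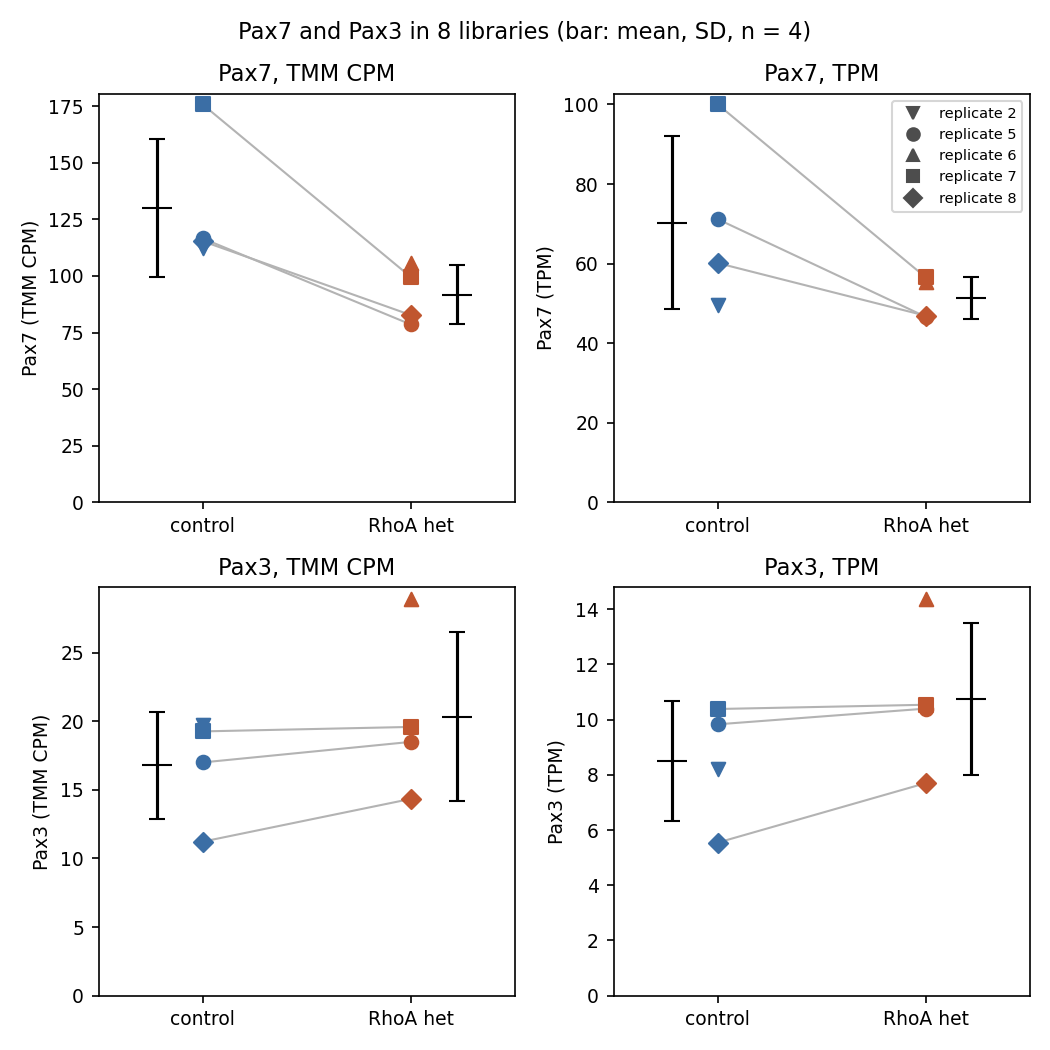
Pax7 (top) and Pax3 (bottom) in each library as TMM-scaled CPM (left) and deposited TPM (right), control in blue and RhoA het in orange, with grey lines joining replicates of the same number and black bars giving the mean and SD (n = 4). Pax7 is lower at the RhoA het end of all 3 lines and the groups overlapped on TPM but not on CPM, while the Pax3 groups overlapped on both scales.

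Pax3 was not lower in RhoA het, and its groups overlapped on every scale. It was at 19.7, 17.0, 19.3 and 11.2 CPM in the controls (numbers 2, 5, 7 and 8), against 18.5, 28.9, 19.6 and 14.3 CPM in the RhoA het libraries (numbers 5, 6, 7 and 8). The libraries numbered 8 were lowest in each group, and RhoA het replicate 6 was highest of all. The means were 16.8 ± 3.90 and 20.3 ± 6.14 CPM (SD, n = 4 each). On the log2 scale the difference was 0.28 (SE 0.25), with an interval of -0.28 to 0.83. In edgeR the unadjusted p was 0.293 and the adjusted p 1.00, and differences from -17.6% to 77.9% lay inside the interval. The two-sided exact permutation p was 0.429 on CPM and 0.257 on TPM. Without RhoA het replicate 6, the library high in endothelial markers, the fold change was 0.056 (interval -0.46 to 0.57), and without control replicate 8 it was 0.12 (interval -0.41 to 0.66). The part of the endothelial signal in the Pax3 value of that library was not tested.

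Within the same-numbered pairs, Pax7 was lower in RhoA het 3 of 3 times and Pax3 was higher 3 of 3 times. On TMM CPM Pax7 differed by -32.6% in pair 5, -43.4% in pair 7 and -28.3% in pair 8. Pax3 differed by 8.81%, 1.69% and 27.8% in the same pairs. A lower value in 3 of 3 pairs was found for 12.5% of genes and a higher one for 13.6%, so the shared direction alone does not set either gene apart. Over the 3 pairs, with the replicate number as a block, the log2 fold change of Pax7 was -0.65 (SE 0.12, interval -0.91 to -0.39). The edgeR unadjusted p was 0.000181 and the adjusted p 0.143, above the threshold that 2 of 15714 genes passed (0.0127%). Pax7 ranked 20 by p in that fit and 10 among genes lower in RhoA het. An unadjusted p under 0.05 was reached there by 5.26% of genes, 2.28% lower and 2.98% higher in RhoA het. For Pax3 the block gave 0.14 (SE 0.16, interval -0.21 to 0.49, edgeR unadjusted p 0.398). The same 6 libraries without the block gave -0.67 for Pax7 (interval -1.13 to -0.21) and 0.12 for Pax3 (interval -0.44 to 0.68).

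Muscle fibre RNA was lower in RhoA het in each of these pairs, as Pax7 was. The mean log2 CPM over 14 myofibre markers was 3.77 in control and 2.69 in RhoA het for number 5, 2.78 and 1.64 for number 7, and 1.78 and 1.06 for number 8. With the block 10 of the 12 markers tested had an edgeR unadjusted p under 0.05, all lower, beside 2.28% of all genes. Of the 12 markers, 2 (Acta1 and Atp2a1) passed the adjustment over all genes. Over all 8 libraries the markers ranged from 1.55 to 3.77 in control and from 1.06 to 3.56 in RhoA het. Outside the pairs they ran the other way, at 1.55 in control replicate 2 and 3.56 in RhoA het replicate 6. Pax7 was at 112 and 106 CPM in those libraries. Markers of fibro-adipogenic progenitors, the connective tissue cells of muscle, differed in the other direction. The mean log2 CPM over 10 of them was 6.67 in control and 6.76 in RhoA het for number 5, 6.10 and 6.28 for number 7, and 7.09 and 7.29 for number 8. Of these 10 markers 3 had an edgeR unadjusted p under 0.05 with the block, all higher, beside 2.98% of all genes, and 0 were called. Their summed TPM was 4084 to 9082 in control and 6660 to 8838 in RhoA het, and it was lower in RhoA het for number 5. The part of either list in the Pax7 difference was not tested.

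**Figure D2:**
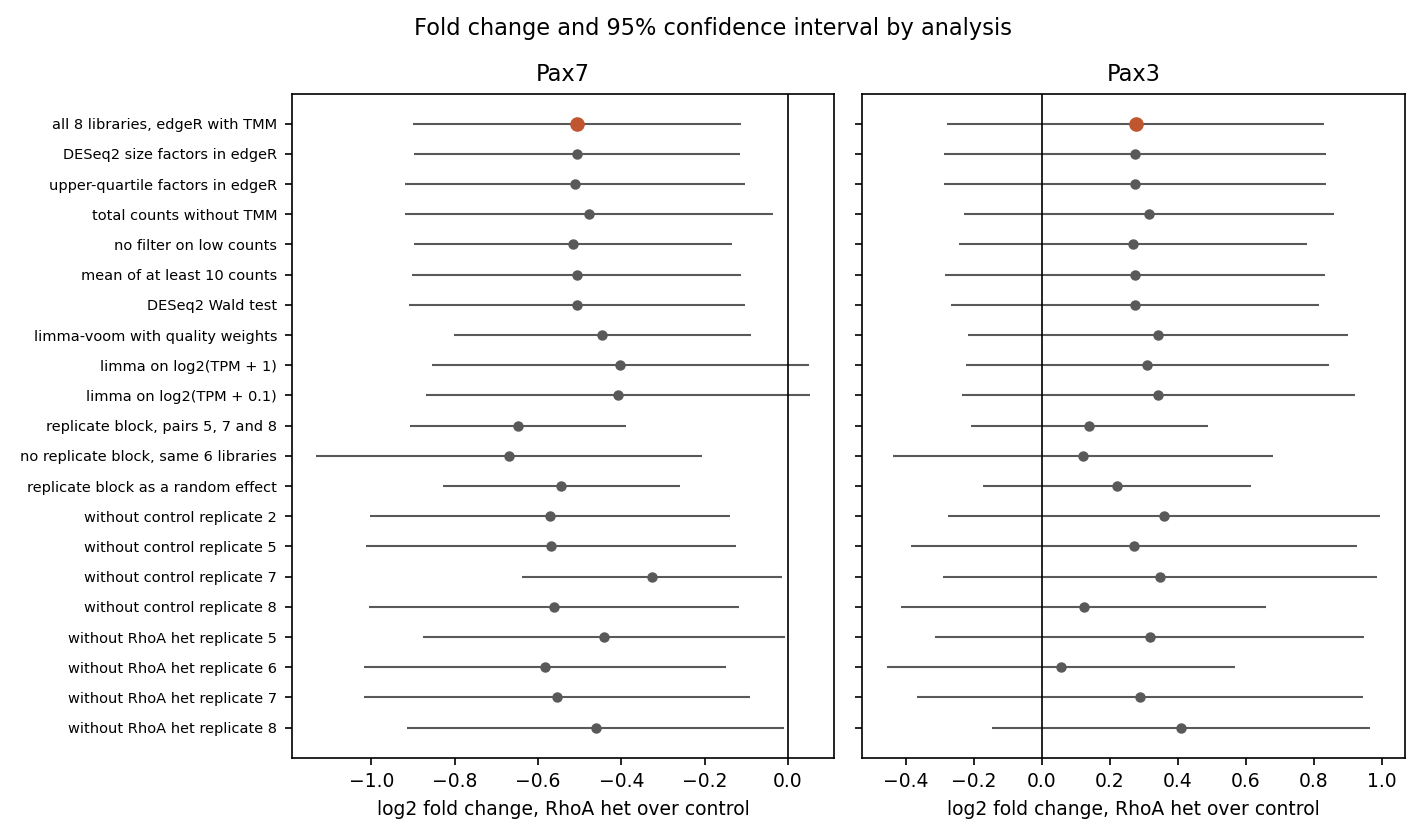
Log2 fold change of Pax7 (left) and Pax3 (right), RhoA het over control, with 95% confidence intervals, for the analysis of all 8 libraries (orange) and 20 alternatives. Pax7 stayed below 0 throughout, from -0.67 to -0.33, with intervals that include 0 on the TPM scale, and every Pax3 interval includes 0.

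The balance between the paralogues was then measured as the ratio of Pax7 to Pax3 fragments in each library, in which library scaling cancels. It was 5.71, 6.86, 9.13 and 10.3 in the controls (numbers 2, 5, 7 and 8), against 4.25, 3.65, 5.08 and 5.77 in the RhoA het libraries (numbers 5, 6, 7 and 8). All RhoA het libraries lay below the controls numbered 5, 7 and 8. Control replicate 2 lay just under RhoA het replicate 8, so the groups overlapped by 1 library. The mean log2 ratio was 2.96 ± 0.39 in control and 2.21 ± 0.29 in RhoA het (SD, n = 4 each), a difference of -0.75, or 0.593-fold. The two-sided exact permutation p was 0.0571, over the threshold of 0.05. Without control replicate 2 the difference was -0.90 (exact permutation p 0.0286). In the pairs the log2 ratio differed by -0.69, -0.85 and -0.83 for numbers 5, 7 and 8. These differences had a mean of -0.79 and an SD of 0.085 over 3 pairs, and the exact permutation p of 0.25 is the smallest that 3 pairs allow. By TPM, Pax3 made up 8.44% to 14.2% of the sum of both transcripts in control and 14.1% to 20.6% in RhoA het libraries. The levels of the paralogues showed no detectable relation over the 8 libraries (Pearson's r 0.075, exact permutation p 0.855; Spearman's rho -0.048, exact permutation p 0.935). Without control replicate 7 and RhoA het replicate 5, the libraries farthest from the median of Pax7, r was 0.038. Pax7 and Rhoa gave an r of 0.24 (exact permutation p 0.567) and a rho of 0.55 (exact permutation p 0.171). Without the same 2 libraries r was 0.54 (exact permutation p 0.281). Adjusted over these 2 relations, p was 0.855 for either r, and 0.935 and 0.342 for the rho of Pax3 and of Rhoa. Same-numbered libraries resemble each other, so the 8 points are not fully independent, and groups of 4 are too small for a value within a group.

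**Figure D3:**
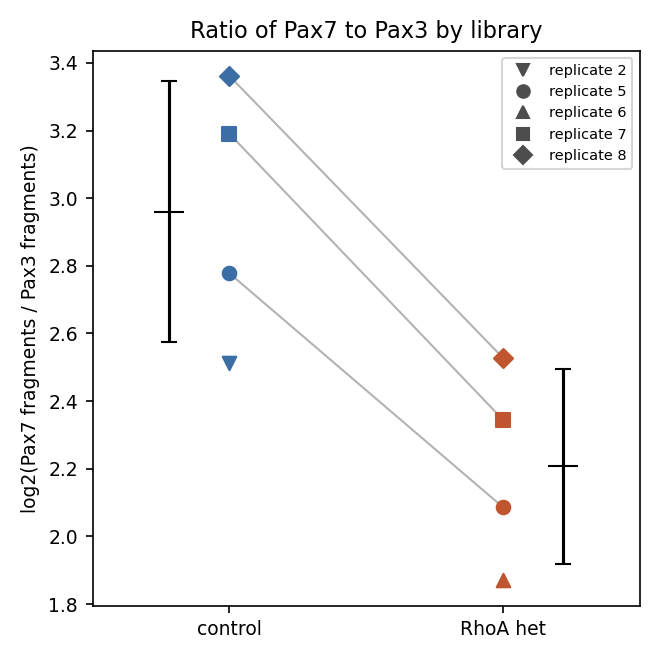
Log2 ratio of Pax7 to Pax3 fragments in each library, control in blue and RhoA het in orange, with grey lines joining replicates of the same number and black bars giving the mean and SD (n = 4). The 3 lines descend by 0.69 to 0.85, and control replicate 2 lies level with RhoA het replicate 8.

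The other paired box genes were close to silent. Pax2 had 0 fragments in all libraries together, which allows a level of up to 0.0174 CPM (counting error only). Pax1, Pax4, Pax5 and Pax8, regulators of other organs and of B cells, had 1, 2, 1 and 3 fragments, and Pax6, a regulator of eye development, had 42. Pax9, which acts in pharyngeal and skeletal development, had 198 fragments and was highest in the libraries numbered 8, with 2.16 TPM in the RhoA het library, against at most 0.809 in the 6 libraries of other numbers. Of the 9 family members 3 passed the filter on low counts, namely Pax7, Pax3 and Pax9, and 0 were called.

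Genes that act upstream of or beside Pax3 and Pax7 in the muscle lineage were mostly expressed, and none was called. Of 17 such genes 16 were tested, with 10 higher and 6 lower in RhoA het, none at an unadjusted p under 0.05. The median log2 fold change was 0.061 against -0.00071 over all genes tested. The homeobox factor Six4 was at 9.15 ± 2.04 TPM in control and 9.55 ± 1.54 in RhoA het (SD, n = 4 each). Its coactivator Eya1 was at 8.22 ± 4.69 and 11.1 ± 2.88 TPM, and Eya4 at 8.56 ± 2.10 and 8.60 ± 0.371. The limb muscle factor Lbx1 was at 7.01 ± 0.0401 and 7.54 ± 1.45 TPM. Msc, a basic helix-loop-helix repressor, was the most abundant of the list and varied widely, at 367 ± 309 and 396 ± 186 TPM.

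Other genes were ranked by Pearson's r of log2 CPM with each member over the 8 libraries, among 9746 named genes with a mean of at least 5 CPM. Among the 5 closest to Pax3 were the chemokine Cxcl3 (r 0.97), the collagen prolyl hydroxylase P4ha2 (0.96), the receptor Tnfrsf19 (0.95) and the Notch antagonist Numb (0.95), and the most opposed were Lgi4 (-0.97), Luzp2 (-0.97) and AW209491 (-0.97). For Pax7 the closest were Tmem135 (r 0.97), the isocitrate dehydrogenase subunit Idh3b (0.96), Rp9 (0.95), the tRNA-modifying enzyme Cdkal1 (0.92) and the splicing factor Snw1 (0.91), and the most opposed were Ankrd11 (-0.99), Tec (-0.94) and Ttbk2 (-0.93). An r above 0.9 was found for 6 genes with Pax7 and for 22 with Pax3. These are the extremes of many genes over 8 libraries that share genotype and replicate number, and they are given as a description.

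Proteins that bind or modify Pax7 or Pax3 were expressed throughout, and their transcripts showed no call. All 11 were tested, with 5 higher and 6 lower in RhoA het, none at an unadjusted p under 0.05, and their median was -0.021 on the log2 scale. Wdr5, a subunit of the methyltransferase complex that Pax7 recruits, was at 61.7 ± 14.1 TPM in control and 59.5 ± 9.32 in RhoA het (SD, n = 4 each). The arginine methyltransferase Carm1, which modifies Pax7, was at 3.46 ± 0.611 and 3.46 ± 0.568 TPM. Paxbp1, which links Pax3 and Pax7 to that complex, was at 13.8 ± 3.66 and 16.4 ± 4.55 TPM. Nedd4, a ubiquitin ligase that acts on Pax7, was at 272 ± 53.3 and 281 ± 8.02 TPM.

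Reported direct targets of Pax7 or Pax3 did not shift together. All 11 were tested and 0 were called with or without the block. In all 8 libraries 6 were higher and 5 lower in RhoA het, and the median was 0.024 on the log2 scale. An unadjusted p under 0.05 was reached by 1 of 11, in the higher direction, beside 1.68% of all genes. That gene was Mitf, a factor of the melanocyte lineage under Pax3. It was at 4.28, 4.65, 3.86 and 3.71 CPM in the controls (numbers 2, 5, 7 and 8), against 7.61, 6.09, 4.75 and 6.79 CPM in the RhoA het libraries (numbers 5, 6, 7 and 8). The groups did not overlap on CPM, as for 1.81% of genes in either direction, and did overlap on TPM, where RhoA het replicate 7 at 2.55 lay under control replicate 5 at 2.68. The log2 fold change was 0.61 (SE 0.21, edgeR unadjusted p 0.0162, adjusted p 1.00), on 79 to 162 fragments per library. The 7 melanocyte genes together, Mitf included, summed to 7.20 to 16.6 TPM in control and 8.54 to 17.9 TPM in RhoA het. Among them the pigment enzymes Tyr and Dct reached at most 0.0206 and 0.609 TPM in any library. The third pigment enzyme, Tyrp1, reached 3.46 TPM in RhoA het replicate 5, which also had the most Mitf, and 2.41 TPM in control replicate 5. The melanosome genes Pmel and Mlana reached 2.75 and 2.58 TPM, both in control libraries, and Sox10, which Schwann cells share, reached 10.3 TPM. Their part in the Mitf value was not tested.

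Myf5, the myogenic factor most directly under Pax7, was at 305, 489, 885 and 166 CPM in the controls (numbers 2, 5, 7 and 8), against 420.3, 773, 713 and 258 CPM in the RhoA het libraries (numbers 5, 6, 7 and 8). It varied more within the groups than between them, was lowest in the libraries numbered 8, and had a log2 fold change of 0.23 (SE 0.50), or 0.0063 (SE 0.17) with the block. The direction turned without control replicate 8, at -0.051. Myod1, the commitment factor, was at 2445 ± 595 TPM in control and 2042 ± 383 in RhoA het (SD, n = 4 each), with a log2 fold change of -0.35 (SE 0.25), or -0.14 without control replicate 2 and -0.53 without RhoA het replicate 6. With the block 3 of the 11 targets had an unadjusted p under 0.05, beside 5.26% of all genes. They were Dmrt2, a Pax3 target of the somite, at 0.41 (SE 0.15), Mitf at 0.60 (SE 0.25), and the receptor gene Met at -0.29 (SE 0.13). Over all 8 libraries Dmrt2 was at 0.12 (SE 0.22), with 0.41 without control replicate 2, 0.010 without control replicate 5 and 0.0025 without control replicate 7. It was at 0.067 without control replicate 8 and at 0.071 and 0.074 without RhoA het replicates 5 and 7. Over all 8 libraries Met was at -0.25 (SE 0.17), and at -0.077 without control replicate 5. The receptor Fgfr4 and its brake Spry1, both under Pax3, had block values of -0.27 (SE 0.13) and 0.014 (SE 0.16). Over all 8 libraries Spry1 was at 74.3, 63.2, 86.0 and 29.5 TPM in the controls (numbers 2, 5, 7 and 8). In the RhoA het libraries (numbers 5, 6, 7 and 8) it was at 47.4, 143, 82.0 and 47.6. Fgfr4 was at 233, 355, 368 and 243 TPM in control and 240, 270, 372 and 227 in RhoA het, in the same order.

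**Figure D4:**
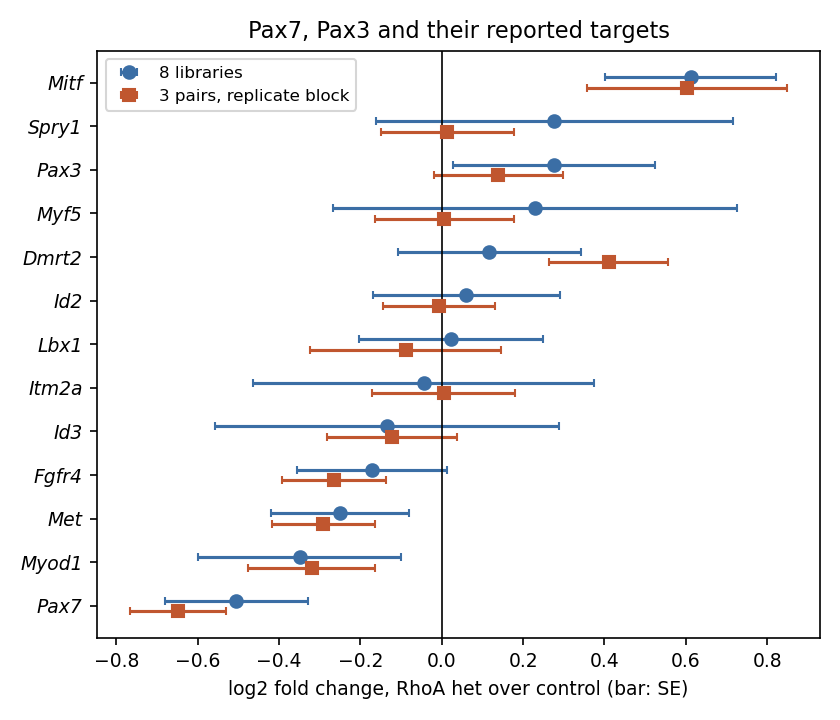
Log2 fold change with SE, RhoA het over control, of Pax7, Pax3 and 11 reported targets, for all 8 libraries (blue circles) and for the 3 pairs with the replicate block (orange squares). Pax7 is the lowest and Mitf the highest in both analyses, and the other targets lie on either side of 0.

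The labelled cell type was checked on other muscle stem cell markers. All 18 were above 1 TPM on average and were tested, and 0 were called, with 10 higher and 8 lower in RhoA het. Their mean log2 CPM was 7.62 ± 0.18 in control and 7.65 ± 0.19 in RhoA het (SD, n = 4 each), a difference of 0.034. This mean was not tested as a measure of stem cell content. The most abundant were the proteoglycan Sdc4, at 6569 ± 1893 and 6837 ± 1878 TPM, and the adhesion molecule Vcam1, at 974 ± 213 and 1158 ± 428 TPM. Vcam1 was highest, at 1762 TPM, in RhoA het replicate 6, the library high in endothelial markers. The lectin gene Chodl had the smallest p of the list. It was at 914, 909, 927 and 626 CPM in the controls (numbers 2, 5, 7 and 8), against 597, 718, 786 and 455 CPM in the RhoA het libraries (numbers 5, 6, 7 and 8), so that only control replicate 8 reached into the RhoA het range. Its log2 fold change was -0.40 (SE 0.20, edgeR unadjusted p 0.0765), and -0.46 with the block (SE 0.13, edgeR unadjusted p 0.00366, adjusted p 0.5).

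Markers of other states and cell types are given as levels. Of 12 commitment genes 10 were tested and 0 called over all 8 libraries, with 2 higher and 8 lower in RhoA het. With the block 11 were tested and 3 had an edgeR unadjusted p under 0.05, all lower, beside 2.28% of all genes. They were Myh3, Ckm and Acta1, which encode proteins of the contractile fibre or its energy supply, and 1 of them, Acta1, was called. Ckm and Acta1 are also among the myofibre markers above. Of 14 proliferation genes all were tested and 0 called, with 1 higher and 13 lower in RhoA het. Their mean log2 CPM was highest in the libraries numbered 5, at 4.73 in control and 4.21 in RhoA het, where Pax7 was at 117 and 78.5 CPM. It was 1.04 in control and 1.70 in RhoA het for number 7, and 1.37 and 1.88 for number 8. Outside the pairs it was 0.72 in control replicate 2 and 2.40 in RhoA het replicate 6. Of 12 dissociation response genes 0 were called, with 3 higher and 9 lower in RhoA het. Their mean log2 CPM was 10.3 to 11.4 in control and 10.2 to 11.2 in RhoA het. Schwann cell markers, 7 genes of a lineage that can also express Pax3, summed to 198 to 317 TPM in control and 194 to 390 in RhoA het, with the highest value in RhoA het replicate 8, where Pax3 was lowest in its group. Positional genes, which differ between muscles as Pax3 does, were tested for 14 of 17, and 0 were called. Hoxc10 was the most abundant of them, at 35.5 ± 3.44 and 40.9 ± 10.1 TPM (SD, n = 4 each), and Tbx5 was at most at 1.24 TPM in any library.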

How the data were processed

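RNA of 8 samples was sequenced. Per the labels' protocols it was extracted with Trizol and converted to cDNA by template switching. Per the file headers, the authors took STAR alignments to mm39 and obtained paired-end counts per gene from featureCounts 1.6.4 and GENCODE vM34 exons, with no strand or multi-mapping option. The submitters' processing notes also name FastQC, cutadapt and DESeq2. The deposited TPM values equalled counts over exon length scaled per library (largest relative difference 2e-14). The counting command named 10 alignment files, and 8 libraries were analysed here. Symbols matched 51884 of 57180 genes.

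Counts were filtered with edgeR's filterByExpr (15660 genes kept), scaled by TMM and tested by quasi-likelihood in edgeR 4.0.16 under R 4.3.3. All 8 libraries entered, with Benjamini-Hochberg adjustment over all genes and a threshold of 0.05. Log2 CPM used a prior count of 2. Intervals are 95% and standard errors come from the F statistic. Single values were compared by two-sided exact permutation of 4 against 4 (70 assignments). The fit was tested on simulated data with larger changes than that of Pax7 and a smaller spread than the common one here. That test does not show how well a change of the Pax7 size is found. Alternatives used limma 3.58.1 and DESeq2 1.42.0.

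Deviations from the group means correlated between same-numbered libraries at 0.54, 0.23 and 0.49 for numbers 5, 7 and 8 (different numbers -0.19). Centring within a group pushes the values for different numbers down when same-numbered ones are positive, so -0.19 is no independent comparison. The replicate number served as a blocking factor for the 3 pairs (15714 genes), a choice made from these same data. The pairing comes from the titles, which do not say what a number stands for. The members and the gene lists were chosen with earlier results of these data known. Genes named were the members, the genes of the 4 lists nearest to them, and the 5 most and 3 least alike per member. Per other list they were the 3 most abundant and 3 with the smallest p. Tyr, Dct, Tbx5, Acta1, Atp2a1 and Xist are named for their values. Some genes that this rule names are not reported here.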

Additional observations from a re-analysis of the deposited data

Results flagged for a closer look

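Pax7 in control replicate 7, at 176 CPM against 112 to 117 in the other control libraries, stood apart from its group: the gap to the nearest library took 0.935 of the group's range, above Dixon's 95% critical value for 4 libraries. On TPM the same ratio was 0.572, below it. Of 10 such tests on Pax7, Pax3 and their ratio, 1 was past the critical value, where chance flags about 1 in 20. Control replicate 7 also had the most RNA of 5 erythroid markers among the controls, at 623 summed TPM against 8.68 to 88.5. RhoA het replicate 6 had more, at 1284, with Pax7 at 106 CPM. The part of erythroid RNA in the Pax7 values was not tested.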

How the results depend on the processing

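Pax7 was lower in RhoA het in all 20 alternatives, with log2 fold changes from -0.67 to -0.33 and adjusted p from 0.143 (replicate block) to 1.00. Leaving out 1 library each gave -0.58 to -0.33. Pax3 was higher in all 20, from 0.056 to 0.41, with adjusted p of at least 0.854; leaving out 1 library each gave the same range. The count of called genes was 0 in 19 of 20 alternatives and 2 with the replicate block, where the numbers pair the libraries; the block changed no call for Pax7 or Pax3. For their ratio the paired test could not pass the threshold, since 3 pairs allow no p below 0.25. The difference in log2 ratio of Pax7 to Pax3 was -0.75 on TPM and with a prior count of 2, -0.79 within pairs, and -0.90 to -0.62 when 1 library was left out, with exact permutation p from 0.0286 (without control replicate 2) to 0.0857. Over TPM the r of Pax7 was 0.13 with Pax3 and 0.20 with Rhoa. Myf5 turned from 0.23 to -0.17 when the 6 paired libraries were fitted with no replicate block and to -0.051 without control replicate 8, with a range up to 0.76 when 1 library was left out; the cause was not tested. The sign was kept in these 20 alternatives by Mitf (0.49 to 0.72), Chodl (-0.52 to -0.27), Rhoa (-0.37 to -0.20), Myod1 (-0.53 to -0.14), Met (-0.34 to -0.077) and Dmrt2 (0.0025 to 0.41), the last nearly 0 without control replicate 5 or 7. Pax3 rests on 239 to 608 fragments per library, with a counting error of 4.06% to 6.47%, below its coefficients of variation between libraries of 23.2% in control and 30.2% in RhoA het.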
